A study of Mus musculus with 12 samples.

Results

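The 9 genes described here encode the corticosteroid receptors, an enzyme that regenerates their ligand, and transcripts known to respond to glucocorticoids: Nr3c1, Nr3c2, Hsd11b1, Fkbp5, Sgk1, Tsc22d3, Errfi1, Zbtb16 and Pdk4. They were chosen by name with earlier results of these data known, so counts over them describe these data and give no independent support. All 22 probe sets that the platform annotation gives a single one of these symbols were taken. They came out of 45037 probe sets and 18193 named genes. Where a gene had several, the one with the highest average level across all arrays is called its lead probe set and stands for the gene. Nr3c2, Sgk1, Hsd11b1 and Pdk4 had 1 probe set each, Errfi1 had 2, Fkbp5 and Zbtb16 had 3, Tsc22d3 had 4 and Nr3c1 had 6.

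The arrays came from male Swiss mice, an outbred stock, that chose freely between 3 bottles holding water, 5% ethanol and 10% ethanol from 6 weeks of age. Per the labels, an acquisition phase of 10 weeks was followed by withdrawal for 2 weeks, reinstatement for 2 weeks and, for another 2 weeks, bitter quinine in the ethanol at 0.005 g/L, before free choice returned. The mice were then 22 weeks old. Inflexible drinkers preferred ethanol in all phases (mean blood ethanol 113 ± 11.3 mg/dL per the labels, kind of error not stated) and light drinkers preferred water (48 ± 13.3 mg/dL). Prefrontal cortex and whole striatum of each class were measured on 3 arrays, 4 groups in all. The chip numbers of the arrays lie between 1 and 12, save 17 for light prefrontal replicate 1. All 4 groups had thus drunk some ethanol, and the water-only animals that the labels mention were not analysed here, nor was any hormone level. As every group carries a single pool concentration in its labels, its 3 arrays may be hybridisations of the same pooled RNA. The p-values then measure only the spread between arrays, which may be technical. All levels are deposited log2 values, so a difference of 1 is a doubling. Such values are compressed near the bottom of the scale, which understates differences of weak signals. A difference was called at a Benjamini-Hochberg adjusted p under 0.05 in a limma fit over all 45037 probe sets. Counts at an unadjusted p under 0.05 by limma are also given. The share of all probe sets at that threshold is not, so these counts have no background beside them.

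Before the results, 2 features of the arrays need stating. The probe sets for the hybridisation controls, sequences that are not part of the tissue RNA, were high on 5 arrays (mean log2 8.36 to 9.30) and low on 7 (6.47 to 7.06). The high arrays were 1 in each prefrontal class (replicate 2 of each), 2 of inflexible striatum (replicates 1 and 3) and 1 of light striatum (replicate 1). No label gives the origin of this split. Markers of other cell types and tissues also set the 2 prefrontal groups apart, as given beside the results below. Between 22.4% and 25.0% of probe sets lay above log2 4 on each array, and array medians lay between 3.12 and 3.14. A log2 value of 4 is used below as a mark for weak signal. By that mark 8 of the 9 lead probe sets lay above 4 on at least 3 arrays, and the exception was Pdk4. The shares of all probe sets given below include weak and non-lead ones. They are therefore not matched in level to the 9 lead probe sets.

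As background, corticosterone, the main glucocorticoid of the mouse, acts in the brain through a pair of nuclear receptors. The mineralocorticoid receptor (Nr3c2) binds it with high affinity and is largely occupied at resting hormone levels, while the glucocorticoid receptor (Nr3c1) is filled mainly during stress and at the daily peak. The bound receptors move to the nucleus and act on genes such as Sgk1, Fkbp5, Tsc22d3, Errfi1, Zbtb16 and Pdk4, in part by binding a palindromic DNA sequence, the glucocorticoid response element. The enzyme encoded by Hsd11b1 regenerates active hormone from an inert form inside cells, and FKBP5 is a co-chaperone that lowers the receptor's affinity for hormone.

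The palindrome was looked for in the 250 bases before transcription starts of these genes taken from RefSeq (build GRCm38.p6). For Nr3c2 and Hsd11b1 the stretch searched lay inside the span of the gene, so any start at its outer end was not covered. Windows were matched for 7 of the 9 genes (Nr3c2, Sgk1, Fkbp5, Tsc22d3, Hsd11b1, Pdk4 and Errfi1), with 15 windows. The full element was spelled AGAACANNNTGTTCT, where N is any base, and its hexamer TGTTCT, on either strand; a full element holds the hexamer once on each strand. The full element was found in 1 of the 15 windows, before 1 of the 6 starts of Sgk1, and in 3 of all 32851 windows of that length (0.00913%). It began 189 bases before that start and read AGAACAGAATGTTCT. The hexamer was found in 4 of the 15 windows (2 further Sgk1 starts and 1 of Tsc22d3 beside this one) and in 16.1% of all windows. A window is shown for each of the 3 genes that were called in prefrontal cortex, with full elements and hexamers in capitals. For Sgk1 it was picked out of its 6 windows because it holds the full element. The Sgk1 window lies at chr10:21993640-21993889 (plus strand), that of Nr3c2 at chr8:76902080-76902329 (plus strand) and that of Hsd11b1 at chr1:193242361-193242610 (minus strand).
Sgk1: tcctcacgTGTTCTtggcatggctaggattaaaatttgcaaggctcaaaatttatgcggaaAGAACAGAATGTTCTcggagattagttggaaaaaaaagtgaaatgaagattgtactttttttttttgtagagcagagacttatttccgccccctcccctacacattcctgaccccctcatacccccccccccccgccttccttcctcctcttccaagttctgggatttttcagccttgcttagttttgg
Nr3c2: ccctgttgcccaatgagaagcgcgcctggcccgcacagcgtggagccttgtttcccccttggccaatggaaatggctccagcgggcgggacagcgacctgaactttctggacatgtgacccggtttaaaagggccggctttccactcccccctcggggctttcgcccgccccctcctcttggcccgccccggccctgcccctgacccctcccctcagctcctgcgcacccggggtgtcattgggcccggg
Hsd11b1: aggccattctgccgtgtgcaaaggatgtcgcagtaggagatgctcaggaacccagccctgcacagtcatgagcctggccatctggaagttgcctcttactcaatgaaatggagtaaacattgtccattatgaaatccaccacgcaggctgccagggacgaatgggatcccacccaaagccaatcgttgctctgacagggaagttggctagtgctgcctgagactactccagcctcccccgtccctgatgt
The Sgk1 window holds the full element and a separate hexamer further upstream, and the Nr3c2 and Hsd11b1 windows hold neither spelling. The Nr3c2 window is rich in G and C (68.4%, against a median of 52.4% over all windows), and the shown windows of Sgk1 (44.8%) and Hsd11b1 (54.4%) lie nearer that median. The other Sgk1 windows hold 43.6% to 70.4%. A match is a description of letters, and receptor binding was not measured.

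In prefrontal cortex the comparison of inflexible with light drinkers asked whether mice that kept drinking bitter ethanol differed in these genes. The mineralocorticoid receptor gene Nr3c2, the kinase gene Sgk1 and the steroid enzyme gene Hsd11b1 rose in inflexible drinkers, by 2.41-fold, 1.64-fold and 1.37-fold. No lead probe set fell past the test. The glucocorticoid receptor gene Nr3c1 stood at nearly the same level in both classes. Thus 3 of 9 lead probe sets, of genes chosen with earlier results known, were called, all higher in inflexible drinkers. Of all probe sets 0.826% were called (0.402% higher, 0.424% lower). By limma 7 of the 9 had an unadjusted p under 0.05. The median difference of the 9 was 0.33, against 0.00 over all probe sets. The 3 arrays of one class lay wholly above the other in 7 of the 9 (Nr3c2, Sgk1, Hsd11b1, Fkbp5, Errfi1 and Tsc22d3 higher, Pdk4 lower, in inflexible drinkers), against 12.9% of all probe sets.

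**Figure D1:**
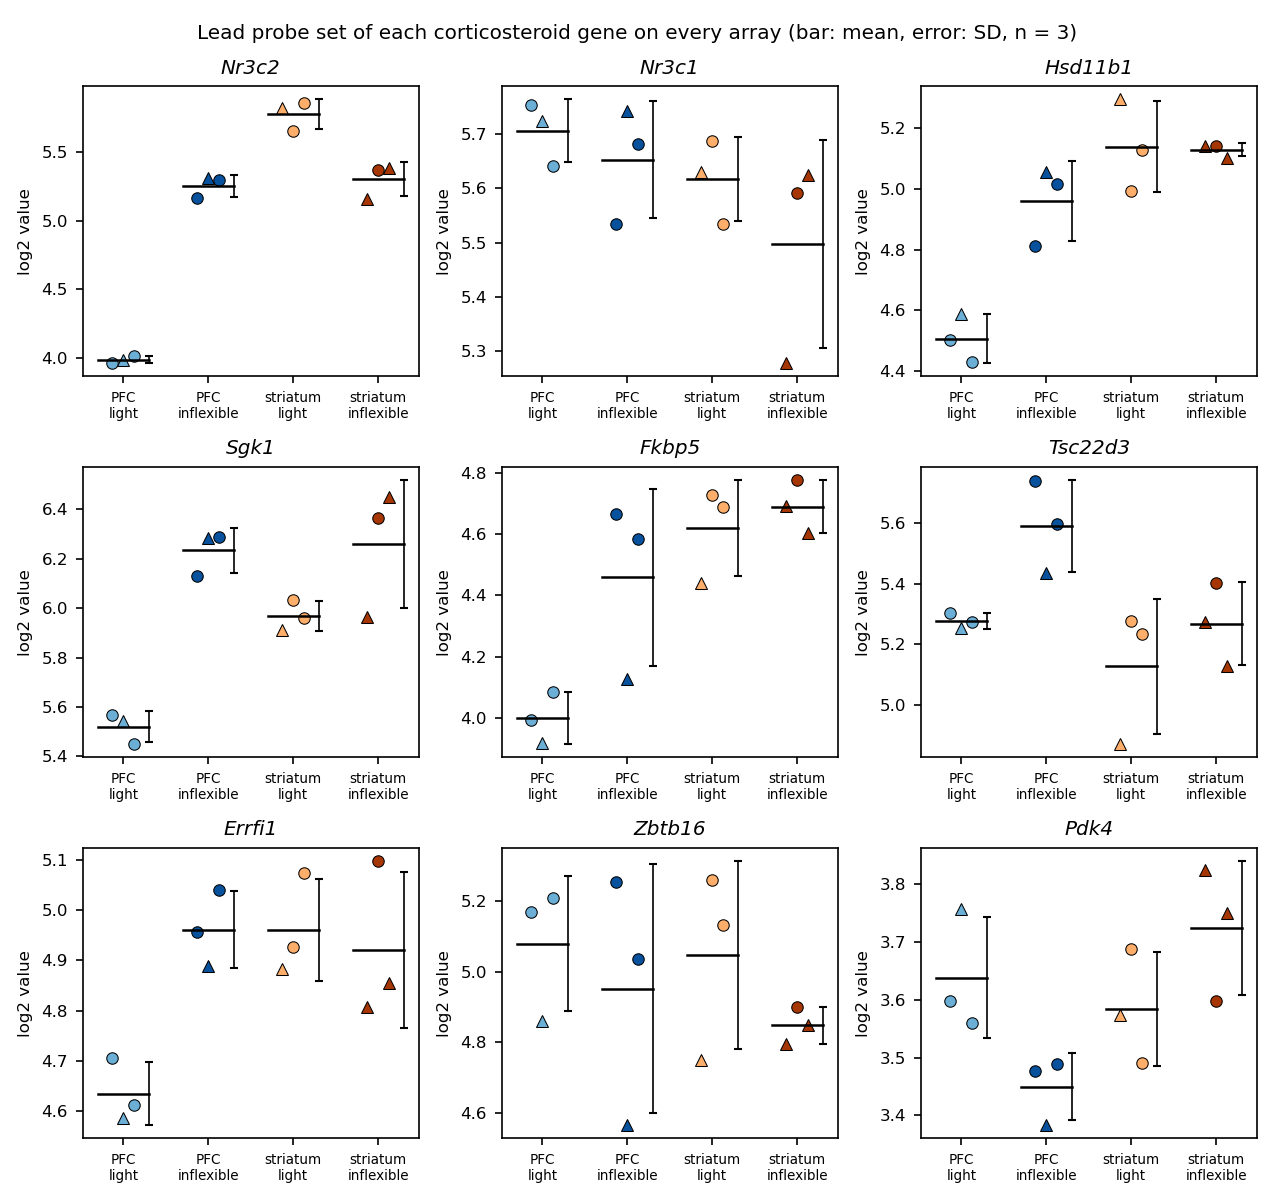
The lead probe set of each of the 9 genes on every array, with the log2 value on the vertical axis (a separate scale in each panel) and the 4 groups on the horizontal axis; bars give the mean, error bars the SD (n = 3), circles are arrays with low and triangles arrays with high hybridisation controls. In Nr3c2 the 3 light prefrontal arrays lie at 3.97 to 4.02 and the other 9 between 5.16 and 5.85, while Nr3c1 lies between 5.28 and 5.75 on all arrays.

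Nr3c2 read 5.16, 5.31 and 5.30 on the inflexible and 3.97, 3.98 and 4.02 on the light prefrontal arrays. In striatum it read 5.16, 5.37 and 5.38 in inflexible and 5.82, 5.65 and 5.85 in light drinkers. The light prefrontal arrays were thus the lowest of all 12, well apart from the rest, and the light striatal arrays were the highest. In prefrontal cortex the difference was 1.27 ± 0.07 (SE, 95% interval 1.11 to 1.43, adjusted p = 9.0e-05), and without any 1 of the 6 arrays it lay between 1.24 and 1.31. The light prefrontal level of 3.99 ± 0.03 (SD, n = 3) sat at the mark for weak signal, where the scale is compressed. In order of level the groups ran from light prefrontal cortex (3.99) through inflexible prefrontal cortex (5.26 ± 0.08) and inflexible striatum (5.30 ± 0.13) to light striatum (5.78 ± 0.11). The 2 inflexible groups did not differ beyond their spread (striatum minus prefrontal cortex 0.05, 95% interval -0.11 to 0.21).

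Nr3c1 read 5.53, 5.74 and 5.68 in inflexible and 5.75, 5.72 and 5.64 in light prefrontal cortex. In striatum it read 5.28, 5.59 and 5.62 in inflexible and 5.63, 5.69 and 5.53 in light drinkers. The groups overlapped throughout, and the lowest value came from 1 inflexible striatal array. The class difference was -0.05 ± 0.09 in prefrontal cortex (95% interval -0.26 to 0.15, adjusted p = 1.00) and -0.12 ± 0.09 in striatum (-0.32 to 0.08). Changes within these intervals were not resolved with 3 arrays a group. Of its other 5 probe sets 2 lay above log2 4 on all arrays, and their prefrontal differences were -0.18 ± 0.14 and -0.06 ± 0.15. The remaining 3 lay near 3 on all arrays. Which transcripts each probe set reads is not given in the table used, so the receptor's isoforms were not separated.

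Hsd11b1 read 4.81, 5.06 and 5.02 in inflexible and 4.50, 4.59 and 4.43 in light prefrontal cortex. The classes did not overlap, and the difference was 0.45 ± 0.08 (95% interval 0.27 to 0.64, adjusted p = 0.0429). This call was close to the threshold: it held in 4 of 16 alternative settings, with a difference between 0.41 and 0.53 in all of them. It was lost without inflexible replicate 2 (adjusted p = 0.148) or 3 (0.180) and without light replicate 1 (0.154), 2 (0.0561) or 3 (0.184). In striatum the gene read 5.14, 5.14 and 5.10 in inflexible and 5.29, 4.99 and 5.13 in light drinkers, levels that overlapped.

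Sgk1, a kinase known to act on ion channels and transporters, read 6.13, 6.29 and 6.29 in inflexible and 5.57, 5.55 and 5.45 in light prefrontal cortex. The inflexible arrays all stood higher, by 0.71 ± 0.11 (95% interval 0.47 to 0.96, adjusted p = 0.0184). The difference lay between 0.68 and 0.77 without any 1 of the 6 arrays. The call was lost without inflexible replicate 2 (adjusted p = 0.0744) or 3 (0.0902) and without light replicate 1 (0.0687) or 3 (0.0870). Striatal values were 5.97, 6.36 and 6.45 in inflexible and 5.91, 6.03 and 5.96 in light drinkers. There 2 of the 3 inflexible arrays stood above all light ones and 1 lay among them.

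Fkbp5 read 4.67, 4.13 and 4.58 in inflexible and 3.99, 3.92 and 4.08 in light prefrontal cortex. The classes did not overlap, yet the second inflexible array, the one with high hybridisation controls, stood close to the light ones. The difference was 0.46 ± 0.13 and did not pass (adjusted p = 0.247). Without that array it was 0.63 ± 0.09 and passed (0.0268). With the control split as a block it was 0.46 ± 0.08 (0.0166), with only the low-control arrays 0.59 ± 0.05 (0.0126), and on the pair with high controls 0.21. Its other 2 probe sets lay near 3 on all arrays, and the mean over the 3 gave 0.17. The size of the Fkbp5 difference therefore rests on how that array and the weak probe sets are treated.

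Errfi1, which encodes a feedback inhibitor of the epidermal growth factor receptor, read 4.96, 4.89 and 5.04 in inflexible and 4.71, 4.59 and 4.61 in light prefrontal cortex. All inflexible arrays were above the light ones, by 0.33 ± 0.08, which did not pass (adjusted p = 0.147). It passed with the control split as a block (0.0163), with array weights (0.0047) and with quantile normalisation (0.0414). Tsc22d3, which encodes the glucocorticoid-induced leucine zipper, read 5.74, 5.43 and 5.60 against 5.30, 5.25 and 5.28, a difference of 0.31 ± 0.11 (adjusted p = 0.474). It passed with only the low-control arrays (0.38 ± 0.05, adjusted p = 0.0400) and with array weights (0.0106). A second Tsc22d3 probe set, near log2 4, differed by 0.27 ± 0.23.

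Zbtb16, a zinc finger factor induced by glucocorticoids in several tissues, read 5.25, 4.57 and 5.04 in inflexible and 5.17, 4.86 and 5.21 in light prefrontal cortex. The classes overlapped, with a difference of -0.13 ± 0.18 (adjusted p = 0.999), and the sign turned (0.07) without the second inflexible array. Pdk4, a kinase that restrains glucose oxidation, read 3.48, 3.38 and 3.49 against 3.60, 3.76 and 3.56. Inflexible arrays were lower by a difference of -0.19 ± 0.07, which did not pass (adjusted p = 0.544). All 12 of its values lay below log2 4, so this is a difference within weak signal.

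**Figure D2:**
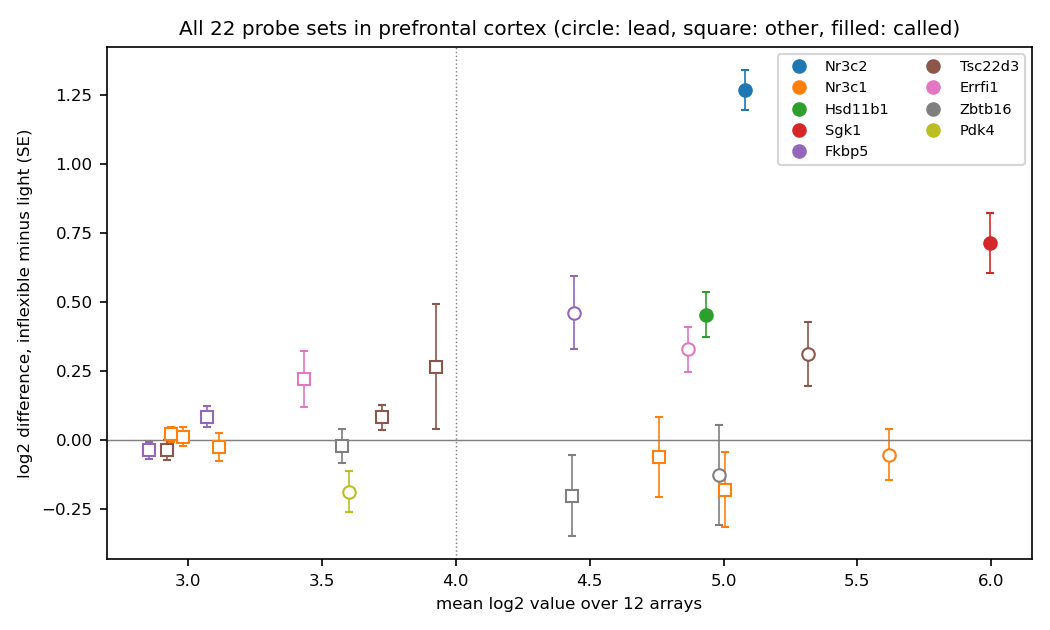
Prefrontal difference (inflexible minus light, log2, with SE) of all 22 probe sets on the vertical axis against their mean log2 value over 12 arrays; circles are lead and squares other probe sets, filled symbols were called, and the dotted line marks log2 4. Nr3c2 (1.27), Sgk1 (0.71) and Hsd11b1 (0.45) are the filled symbols, and 0 of the 13 other probe sets was called.

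The hybridisation control split touched some of the 9 genes and not others. Within groups, arrays with high controls read lower for Zbtb16 (-0.36 ± 0.07, adjusted p = 0.0079), Fkbp5 (-0.25 ± 0.06, 0.0117), Tsc22d3 (-0.21 ± 0.05, 0.0177) and Errfi1 (-0.14 ± 0.04, 0.0308), where 27.7% of all probe sets were called for this split. Nr3c1, Nr3c2 and Sgk1 shifted by 0.01, 0.01 and -0.03, and Hsd11b1 by 0.12 ± 0.05 (adjusted p = 0.101). As each prefrontal class held 1 high-control array, the split left their mean prefrontal differences as they were. With it as a block 5 of the 9 were called in prefrontal cortex (Nr3c2, Sgk1, Hsd11b1, Fkbp5 and Errfi1), where 2.48% of all probe sets were. On the low-control arrays alone the Nr3c2 difference was 1.24 and on the pair with high controls 1.32. For Sgk1 the same values were 0.70 and 0.74.

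**Figure D3:**
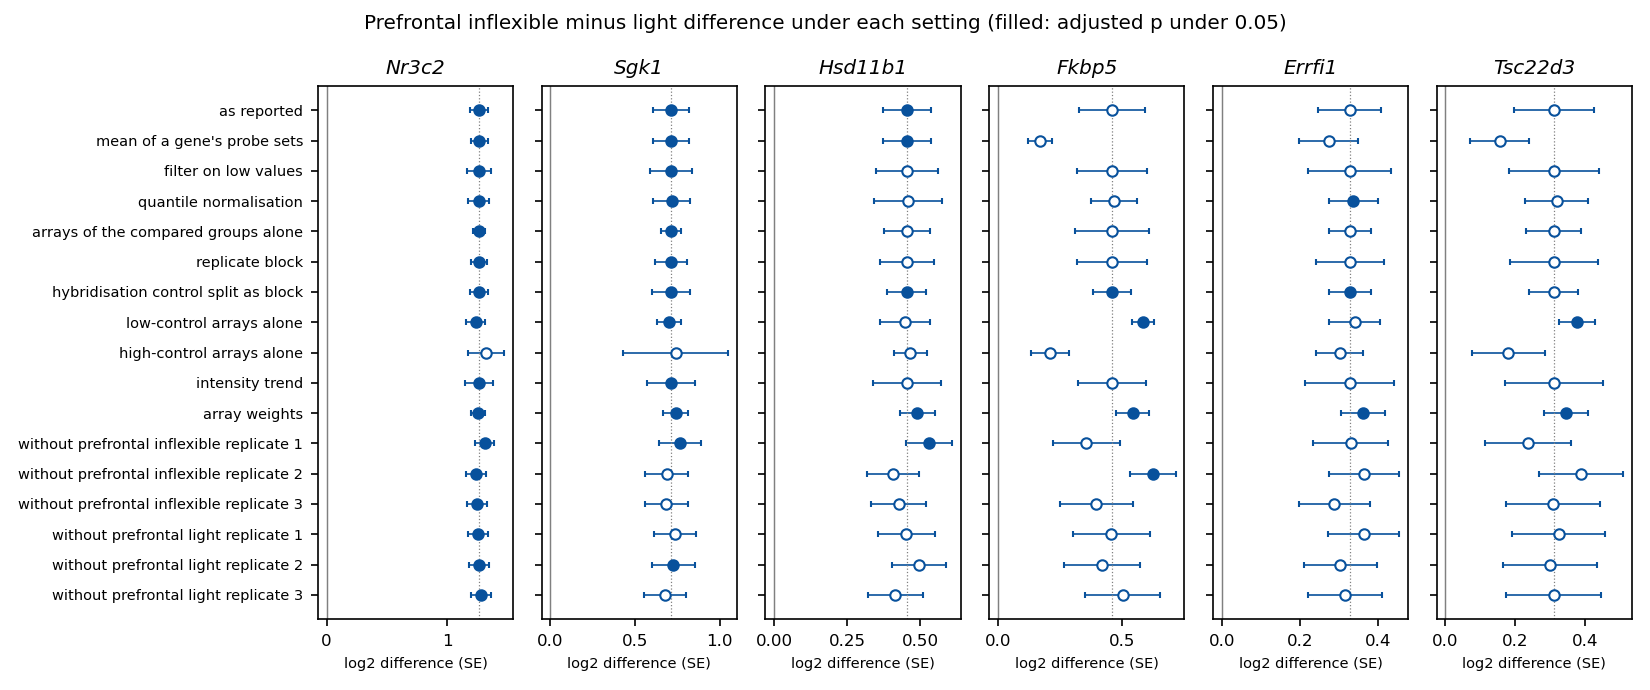
Prefrontal difference (inflexible minus light, log2, horizontal axis with a separate scale for each gene, bars give the SE) of the 6 genes with higher values in inflexible drinkers, under the reported and the 16 alternative settings listed on the vertical axis; filled points have an adjusted p under 0.05. All points of these genes lie above 0. Nr3c2 is called in all but 1 setting, Hsd11b1 in 4 of the 16 alternatives.

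In striatum 0 of the 9 lead probe sets was called by limma between inflexible and light drinkers (2 at an unadjusted p under 0.05), where 0.0111% of all probe sets were (0.00888% higher, 0.00222% lower). The median difference was -0.01, against 0.00 over all probe sets. Nr3c2 was the 1 gene whose arrays did not overlap, against 7.84% of all probe sets: its inflexible arrays lay below the light ones, with a difference of -0.47 ± 0.07 (95% interval -0.63 to -0.31, unadjusted p = 7.3e-05, adjusted p = 0.163). In the settings tried this difference lay between -0.55 and -0.39. Sgk1 differed by 0.29 ± 0.11 (0.05 to 0.53, unadjusted p = 0.0234, adjusted p = 1.00). The remaining differences lay between -0.20 ± 0.18 (Zbtb16) and 0.14 ± 0.11 (Tsc22d3).

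The striatal minus the prefrontal class difference was tested directly. Only Nr3c2 passed: -1.74 ± 0.10 (adjusted p = 1.4e-04), 1 of the 9 genes, where 0.313% of all probe sets were called (0.198% negative, 0.115% positive). It stayed called without any 1 of the 12 arrays, at -1.80 to -1.67. The same term was -0.46 ± 0.12 for Hsd11b1 (adjusted p = 0.253), -0.42 ± 0.15 for Sgk1 (0.672), -0.39 ± 0.19 for Fkbp5 (0.956) and -0.37 ± 0.11 for Errfi1 (0.445). For these 4 genes the class difference is therefore not shown to differ between regions. Of all 9 genes, 5 had an unadjusted p under 0.05 by limma for this term.

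Between regions the 9 genes were compared within each class. In light drinkers 3 of 9 were called, all higher in striatum, where 3.32% of all probe sets were called (1.47% higher, 1.86% lower): Nr3c2 by 1.79 ± 0.07 (3.45-fold, adjusted p = 2.6e-06), Hsd11b1 by 0.63 ± 0.08 (0.0022) and Fkbp5 by 0.62 ± 0.13 (0.0335). The Fkbp5 call was lost without any 1 of the 3 light prefrontal arrays (adjusted p = 0.112, 0.102 and 0.0767) and without light striatal replicate 2 (0.131) or 3 (0.119). Sgk1 (0.45 ± 0.11, adjusted p = 0.0616) and Errfi1 (0.33 ± 0.08, 0.0661) did not pass. The arrays did not overlap in 5 of the 9 genes, against 16.3% of all probe sets. An unadjusted p under 0.05 by limma was reached by 5 of the 9. In inflexible drinkers 0 of 9 were called by limma (2 at an unadjusted p under 0.05, Pdk4 and Tsc22d3), where 0.773% of all probe sets were (0.34% higher in striatum, 0.433% lower). In 3 of the 9 the inflexible arrays of the regions did not overlap, against 11.5% of all probe sets. The median difference was 0.33 in light and 0.03 in inflexible drinkers.

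**Figure D4:**
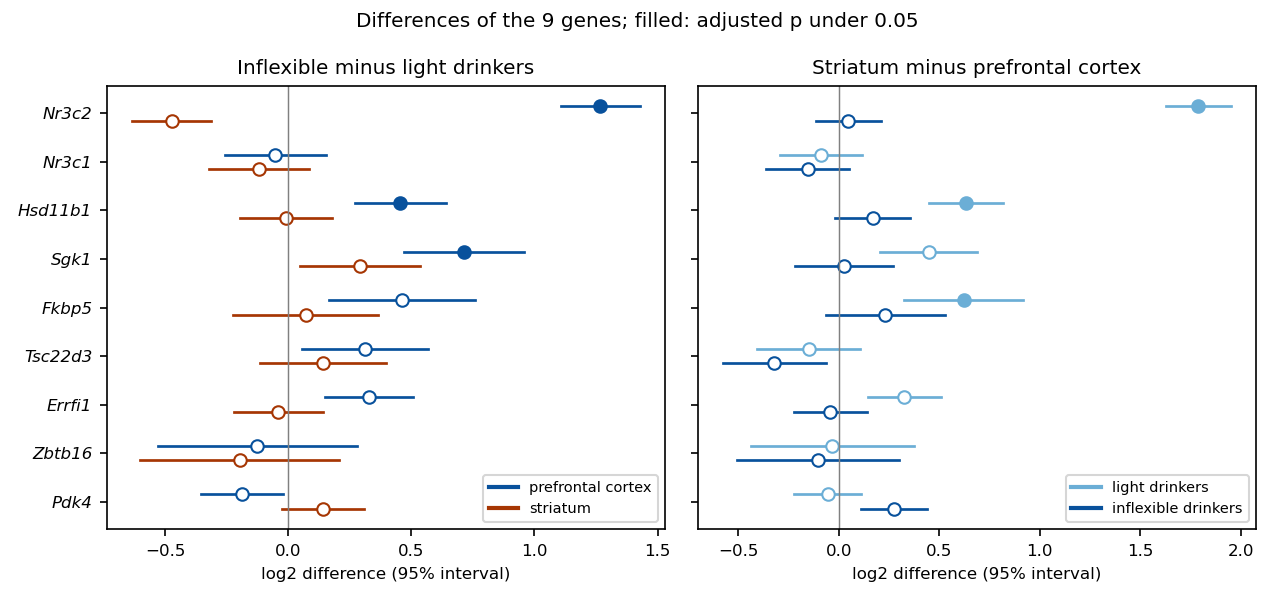
Log2 differences of the 9 lead probe sets with 95% intervals, inflexible minus light drinkers in each region on the left and striatum minus prefrontal cortex in each class on the right; filled points have an adjusted p under 0.05. Nr3c2, Sgk1 and Hsd11b1 are filled for prefrontal cortex, and 0 genes are filled for striatum or for inflexible drinkers between regions.

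The prefrontal class comparison and the light drinkers' region comparison share the light prefrontal arrays, so their values stand side by side without a test of likeness. In 5 of the 9 genes (Nr3c2, Sgk1, Hsd11b1, Fkbp5 and Errfi1) the 3 light prefrontal arrays were the lowest of all 12, which held for 2.14% of all probe sets. For Hsd11b1 the group means were 4.51 ± 0.08 in light prefrontal cortex, then 4.96 ± 0.13 in inflexible prefrontal cortex, 5.13 ± 0.02 in inflexible striatum and 5.14 ± 0.15 in light striatum. For Fkbp5 they were 4.00 ± 0.08, 4.46 ± 0.29, 4.69 ± 0.09 and 4.62 ± 0.16 in the same order. In both genes the last 2 groups, of striatum, did not differ beyond their spread.

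Markers of other cell types and tissues moved with the same comparison. The marker lists, and the pathway lists below, were chosen with earlier results of these data known. Their counts and medians therefore describe these data and give no independent support. In prefrontal cortex 0.826% of all probe sets were called between the classes (0.402% higher, 0.424% lower in inflexible drinkers). There 8 of 17 markers of medium spiny neurons, the projection neurons of striatum, rose in inflexible drinkers and 0 fell (median 0.73). Their mean level was 4.39 to 4.48 on light and 5.14 to 5.25 on inflexible prefrontal arrays, 6.20 to 6.30 on light and 6.59 to 6.70 on inflexible striatal arrays. Of oligodendrocyte markers 6 of 14 rose and 0 fell (median 0.68), with a mean level of 4.46 to 4.59 on light and 5.27 to 5.36 on inflexible prefrontal arrays. Of hippocampal markers 7 of 15 rose and 0 fell (median 0.40, mean level 4.12 to 4.14 against 4.54 to 4.69), among them Neurod6, which the cortical excitatory list holds too. Of choroid plexus markers Ttr rose among 13 (10.78 ± 0.43 against 4.53 ± 0.17, list median 0.19), and 12 of the 13 had a mean at or below log2 4. The part of these cells in the results for Nr3c2, Sgk1, Hsd11b1 and Fkbp5 was not tested. In such bulk tissue, fewer cells of a type and less RNA per cell cannot be told apart.

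The light prefrontal arrays also had the lowest mean level of the hippocampal list, which stood at 4.89 to 5.06 in light and 4.76 to 4.89 in inflexible striatum. Between the classes in striatum 0.0111% of all probe sets were called. There the hippocampal list had a median class difference of -0.23 with 0 of 15 called by limma (8 at an unadjusted p under 0.05), beside the -0.47 of Nr3c2. Medium spiny neuron markers had a median of 0.36 (0 of 17 called, 11 at an unadjusted p under 0.05). For the striatal minus prefrontal class difference 0.313% of all probe sets were called. Of hippocampal markers 7 of 15 were, all negative (median -0.65), beside the -1.74 of Nr3c2. Of oligodendrocyte markers 2 of 14 were called, and all 14 differences were negative (median -0.83). Ttr was called among 13 choroid plexus markers (median -0.28) and Bcl11b among 17 of medium spiny neurons (-0.21), both negative. Cortical excitatory (0.09), astrocyte (0.08), endothelial (0.08) and microglial (0.17) markers had positive medians. Cortical excitatory neuron markers had a median prefrontal class difference of -0.17, with 8 of 14 at an unadjusted p under 0.05, and their part in the results for the 9 genes was not tested. Of these 8 only Neurod6 was called (0.50 ± 0.09, adjusted p = 0.0344), higher in inflexible drinkers. Among the others, lower in inflexible drinkers, were the upper-layer factor gene Cux2 (-0.95 ± 0.19, adjusted p = 0.0578), Rorb (-0.62 ± 0.18, 0.276), Rasgrf2 (-0.57 ± 0.13, 0.0963) and Lamp5 (-0.53 ± 0.18, 0.375). Nr4a2 went the other way (0.74 ± 0.29, adjusted p = 0.543). Of all 14 differences 6 were positive and 8 negative. Between regions in light drinkers, where 3.32% of all probe sets were called, 5 of the 14 were called lower in striatum (Tbr1, Cux2, Rorb, Lamp5 and Rasgrf2) and 3 higher (Neurod6, Foxp2 and Nr4a2). The mean level of the list overlapped between regions (5.07 to 5.45 on prefrontal and 4.76 to 5.11 on striatal arrays). In prefrontal cortex, where 0.826% of all probe sets were called, astrocyte (0 of 12 called, 1 at an unadjusted p under 0.05, median -0.06) and endothelial markers (0 of 11, 2, -0.06) had no call by limma. Of microglial markers 2 of 12 fell there (median -0.14).

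**Figure D5:**
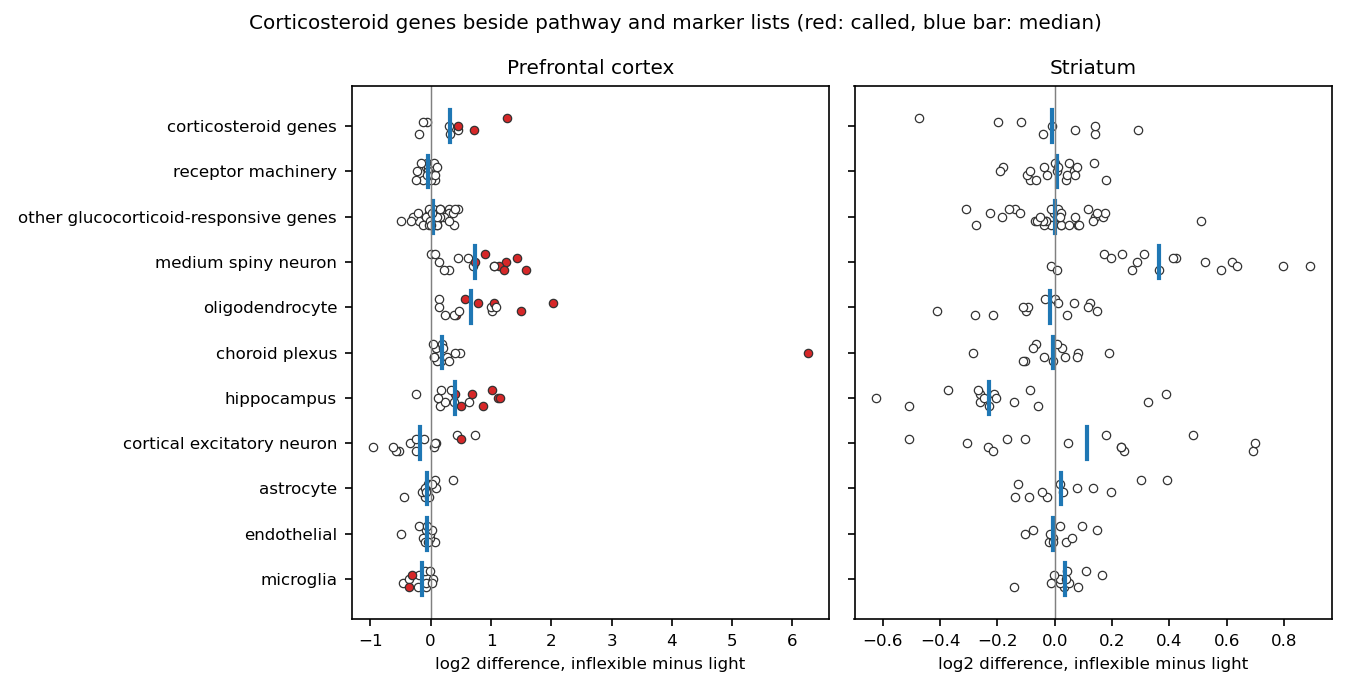
Log2 difference between inflexible and light drinkers (horizontal axis, a separate scale in each panel) of the 9 genes and of each pathway and marker list on the vertical axis, in prefrontal cortex on the left and striatum on the right; red points were called and the blue bar is the median. In prefrontal cortex the median was 0.33 for the 9 genes, 0.73 for medium spiny neuron, 0.68 for oligodendrocyte and 0.40 for hippocampal markers, against -0.05 for receptor machinery and 0.04 for other glucocorticoid-responsive genes.

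Of 36 other measured genes known to respond to glucocorticoids, 0 were called by limma in prefrontal cortex (8 at an unadjusted p under 0.05), where 0.826% of all probe sets were called, so that a count of 0 lies near the background. Their median was 0.04; 24 differences were positive and 12 negative. The smallest p belonged to Camkk2, a kinase upstream of AMPK, which read 7.27 ± 0.17 in inflexible and 7.77 ± 0.06 in light drinkers (-0.50 ± 0.11, adjusted p = 0.106). Next came Anxa1, the anti-inflammatory protein annexin A1 (-0.20 ± 0.05, adjusted p = 0.119, below log2 4 in all groups). Of these 36 genes 15 had a mean at or below log2 4. In striatum, where 0.0111% of all probe sets were called, 0 of 36 were called by limma (1 at an unadjusted p under 0.05, the sulfotransferase gene Sult1a1 at 0.12 ± 0.05), with a median of 0.00, and Cebpd, a transcription factor gene, differed by -0.31 ± 0.16. Between regions, 6 of the 36 were called in light drinkers, where 3.32% of all probe sets were. Cebpd (0.85 ± 0.16, adjusted p = 0.0214) and Bcl6, a transcriptional repressor gene (0.45 ± 0.09, 0.0204), were higher in striatum. Camkk2 (-1.13 ± 0.11, 4.4e-04), the phosphatase gene Dusp1 (-0.69 ± 0.10, 0.0052), the cell cycle inhibitor gene Cdkn1a (-0.54 ± 0.07, 0.0018) and Anxa1 (-0.26 ± 0.05, 0.0155) were lower. In inflexible drinkers, where 0.773% of all probe sets were called, Camkk2 was the 1 call (-0.66 ± 0.11, 0.0305). The group means of Cebpd and Sult1a1 lay below log2 4 in all groups. That of Cdkn1a lay above it only in light prefrontal cortex (4.01 ± 0.03). The differences of these genes are thus within or near weak signal.

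Of 19 measured genes of the receptor machinery (chaperones, coactivators, corepressors and transporters), 0 were called by limma in either region, and 0 in either region had an unadjusted p under 0.05. With 0.826% of all probe sets called in prefrontal cortex and 0.0111% in striatum, a count of 0 among 19 lies near the background. The median was -0.05 in prefrontal cortex and 0.01 in striatum. Hspa8, a constitutive heat shock cognate, differed by -0.16 ± 0.12 in prefrontal and 0.13 ± 0.12 in striatal tissue. Smarca4, a chromatin remodelling ATPase, differed by -0.25 ± 0.25 in prefrontal cortex, and Ncoa3, a coactivator, by 0.08 ± 0.07 in striatum.

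The genes most like Nr3c2 over the 12 arrays, among 6466 others with a mean above log2 4, were Shisa6 (r = 0.99), which encodes an AMPA receptor auxiliary protein, Ecrg4 (0.99), Pcdh20, a protocadherin gene (0.98), Rnf128, a ubiquitin ligase gene (0.98), and Dock10 (0.97). All 5 were low in light prefrontal cortex and highest in light striatum: Shisa6 stood at 3.16 ± 0.11 in light and 4.53 ± 0.03 in inflexible prefrontal cortex, and at 5.14 ± 0.11 in light and 4.63 ± 0.11 in inflexible striatum. The genes most like Sgk1 were Fyco1 (r = 0.93), Strap (0.92), Degs1 (0.89), Gtf2e1 (0.88) and Gabra2 (0.86), and those most like Nr3c1 were Ube2e1 (0.88), Efr3a (0.88), Slc25a36 (0.88), Klhdc2 (0.87) and Txndc17 (0.87). These values describe 12 arrays that share 4 groups, and carry no test.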

How the data were processed

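Expression was measured on 12 one-colour arrays, 3 for each of 4 groups, and groups were taken from the sample titles. The authors deposited 1 table of log2 probe set values. Per the submitters' processing notes RMA and affy were used, with no version given; the log base was read from the values. Control probe sets (64) were left out, and 45037 were tested. The platform annotation gave 34945 of them a single symbol.

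Group means were estimated in limma 3.58.1 (lmFit and eBayes, R 4.3.3) from the 12 arrays together, which leaves 8 residual degrees of freedom. Tests were two-sided, with Benjamini-Hochberg adjustment across all probe sets, and intervals are 95%. No label states the authors' test. The code was tested on simulated data. Tables were handled with Python 3.11.15 and pandas 2.3.3.

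The members and lists were chosen with earlier results of these data known. The 9 members are all named, and pathway genes were named by call or, failing that, the 2 smallest p-values of a list in each region; those called between regions were added after their values were seen, and marker genes stand only beside a result. Similar genes were the 5 with the highest Pearson correlation. The alternatives were another summary of a gene's probe sets, a filter (above log2 4 on at least 3 arrays), quantile normalisation, fewer groups in the fit, blocks, an intensity trend, array weights and leaving out each array. Promoter windows of 250 bases came from RefSeq.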

Additional observations from a re-analysis of the deposited data

Results flagged for a closer look

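The class difference of Nr3c2 was unequal in the regions: the striatal minus the prefrontal difference was -1.74 ± 0.10 (adjusted p = 1.4e-04 by limma). Inflexible drinkers were higher in prefrontal cortex (1.27 ± 0.07, 3 of 3 arrays above all light ones). In striatum the difference was -0.47 ± 0.07 (3 of 3 arrays below all light ones) and did not pass (adjusted p = 0.163), so the test shows unequal differences and not opposite ones. Groups of 3 arrays were too small to test for single arrays that stand apart.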

How the results depend on the processing

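The number of the 9 genes called in prefrontal cortex (3) became 5 with the hybridisation control split as a block, 6 with array weights and 0 on the high-control arrays alone, where 1 array stood against 1 with 1 residual degree of freedom and 0 of all probe sets were called. Leaving out 1 array gave 1 to 3. With the split as a block more of all probe sets were called in prefrontal cortex too, as given above. A higher count is therefore not a result about the 9 genes alone, and the shares under the other settings are not given here. In light drinkers between regions the 3 calls became 5 with the split as a block, on the low-control arrays alone and with array weights, 0 on the high-control arrays and 2 to 3 without 1 array. For the striatal minus prefrontal class difference the 1 call became 2 with array weights and 0 on the high-control arrays. Striatum and inflexible drinkers between regions had 0 calls under every alternative.

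In deviations from group means, 3 of 12 arrays correlated best with one of their own replicate number. These deviations carry the hybridisation control split, for which 27.7% of all probe sets were called. As the split fell on unlike replicate numbers in prefrontal cortex and striatum, the correlations cannot decide whether replicate numbers pair the arrays. With the replicate number as a block 2 genes were called in prefrontal cortex (Nr3c2 1.27, adjusted p = 8.2e-04 by limma, and Sgk1), Hsd11b1 was lost there (0.128) and Fkbp5 between regions in light drinkers (0.0792), and Nr3c2 kept its call for the class difference between regions.

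Of 760 recomputed differences 671 kept direction and call, 28 lost and 20 gained a call, and 41 changed sign, all of them uncalled. On the high-control arrays these were Nr3c1 in prefrontal cortex (0.019), Zbtb16 in striatum (0.073), Nr3c2 (-0.037), Sgk1 (-0.078) and Zbtb16 (0.26) between regions in inflexible drinkers, and Tsc22d3 (0.15) and Zbtb16 (0.37) for the class difference between regions. On the low-control arrays they were Hsd11b1 (0.082) and Errfi1 (0.098) in striatum, Pdk4 (0.010) and Zbtb16 (0.0073) in light drinkers, Errfi1 (0.0996) in inflexible drinkers and Nr3c1 (0.069) for the class difference between regions. With the split as a block they were Errfi1 in striatum (0.0066) and in inflexible drinkers (0.0058), and Zbtb16 in inflexible drinkers (0.015) and between class differences (0.047). With array weights they were Fkbp5 (-0.011) and Hsd11b1 (0.058) in striatum and Pdk4 in light drinkers (0.017), and averaging all probe sets per gene turned Nr3c1 between class differences (0.0078). Without 1 array, Nr3c1 ran from -0.098 to 0.0063 and Zbtb16 from -0.28 to 0.066 in prefrontal cortex. In striatum Fkbp5 ran from -0.020 to 0.12, Hsd11b1 from -0.082 to 0.068 and Errfi1 from -0.13 to 0.016. Between regions Pdk4 ran from -0.11 to 0.0051 and Zbtb16 from -0.14 to 0.12 in light drinkers, and Sgk1 from -0.069 to 0.17, Errfi1 from -0.13 to 0.015 and Zbtb16 from -0.30 to 0.047 in inflexible drinkers. Between class differences Nr3c1 ran from -0.13 to 0.044 and Zbtb16 from -0.26 to 0.079. The cause was not tested. Pdk4 has no value with the filter on low values. Precision is limited by 3 arrays a group.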
